A study of Sus scrofa with 16 samples.

Results

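FOXO1, KLF15, FBXO32, GABARAPL1 and MAP1LC3A, 5 genes of muscle protein breakdown and autophagy, were followed across 16 porcine arrays. They were taken as every probe set whose only gene symbol in the platform annotation was 1 of these names, which gave 7 of the 24123 probe sets on the array for the 5 genes. The arrays held psoas major, a loin muscle, and diaphragm, the main breathing muscle, of 8 Iberian pigs aged 211 days, with both muscles taken from each animal. Of the animals, 4 had been under feed restriction of 20% (animals 2 and 3 male, 5 and 8 female) and 4 on the high feeding level (animals 1 and 4 male, 6 and 7 female). The restricted animals shared their diet with the others until restriction began. The sources used here do not give the age at which it began, its length or whether the males were castrated.

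In starved or disused muscle, FOXO transcription factors enter the nucleus when insulin and AKT signalling falls, and they switch on genes for protein breakdown. One arm is the ubiquitin-proteasome system, in which muscle ligases mark contractile proteins. The other is autophagy, in which proteins of the ATG8 family, to which GABARAPL1 and MAP1LC3A belong, are attached to a growing membrane that delivers cell contents to lysosomes. KLF15 is a transcription factor that glucocorticoids induce in muscle, where it raises the use of amino acids.

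All values are log2 expression values deposited by the authors, and a level of 1 probe set is not set against that of another. A probe set was tested if it reached a log2 value of 4 on at least 4 of the 16 arrays, which 11467 probe sets did, and it was called at a p under 0.05 after adjustment over all tested probe sets (limma, Benjamini-Hochberg). Of the 7 probe sets, 6 were tested. The second FOXO1 probe set lay between 2.34 and 2.55 on all 16 arrays and was not tested. Muscle genes marked every array, with CKM between 15.08 and 15.24 and MYLPF between 14.86 and 15.20, and arrays of the same muscle correlated at 0.956 to 0.987. The 3′-to-5′ gap of the actin controls (log2 level at the 3′ end minus that at the 5′ end), which grows as RNA is degraded, lay between 4.07 and 4.33 in the diaphragm of animals 1, 2, 3 and 5 and between 3.36 and 3.49 in that of animals 4, 6, 7 and 8. It was therefore at the higher level in 3 of 4 restricted diaphragm arrays and in 1 of 4 high-fed ones, so that it moved with feeding level in that muscle. The psoas arrays lay between 3.07 and 3.85. Other cell types differed between the muscles as well, where 17.3% of 4571 tested genes were called higher and 12.2% lower in psoas. Hepatocyte genes, all 7 tested called lower in psoas, had mean log2 levels of 3.13 to 3.77 in psoas, 3.64 to 7.93 in restricted diaphragm and 5.48 to 7.39 in high-fed diaphragm. Endothelial genes had 6.52 to 7.02 in psoas and 7.13 to 7.70 in diaphragm, with 7 of 8 called lower in psoas. Of the fibre genes, 5 of 8 fast ones were higher and 6 of 9 slow ones lower in psoas. The part of these cells and fibres in the differences below was not tested.

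Between the muscles, the transcription factors FOXO1 and KLF15 were higher in psoas than in diaphragm, the ATG8 gene GABARAPL1 was lower, and neither FBXO32 nor MAP1LC3A was called across arrays. Of the 6 tested probe sets, 2 were called higher and 1 lower in psoas. With the animal as a replicate block, which compares the paired muscles of an animal, 5 of the 6 were called, both FBXO32 probe sets in addition, as lower in psoas. With the block, 20.3% of 4571 tested genes were called higher and 15.6% lower in psoas, on 1 probe set per gene. Without the block, 27.0% of all tested probe sets were called, 14.6% higher and 12.4% lower in psoas, so that calls between the muscles were common. Feed restriction gave no call for any of the 6 in either muscle, nor did it for any of the 11467 tested probe sets. Some other settings, such as no filter, called a few probe sets, none of them among the 6. By size and separation, the clearest feeding difference among the 6 was that of MAP1LC3A in diaphragm, where every restricted animal lay below every high-fed animal.

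**Figure D1:**
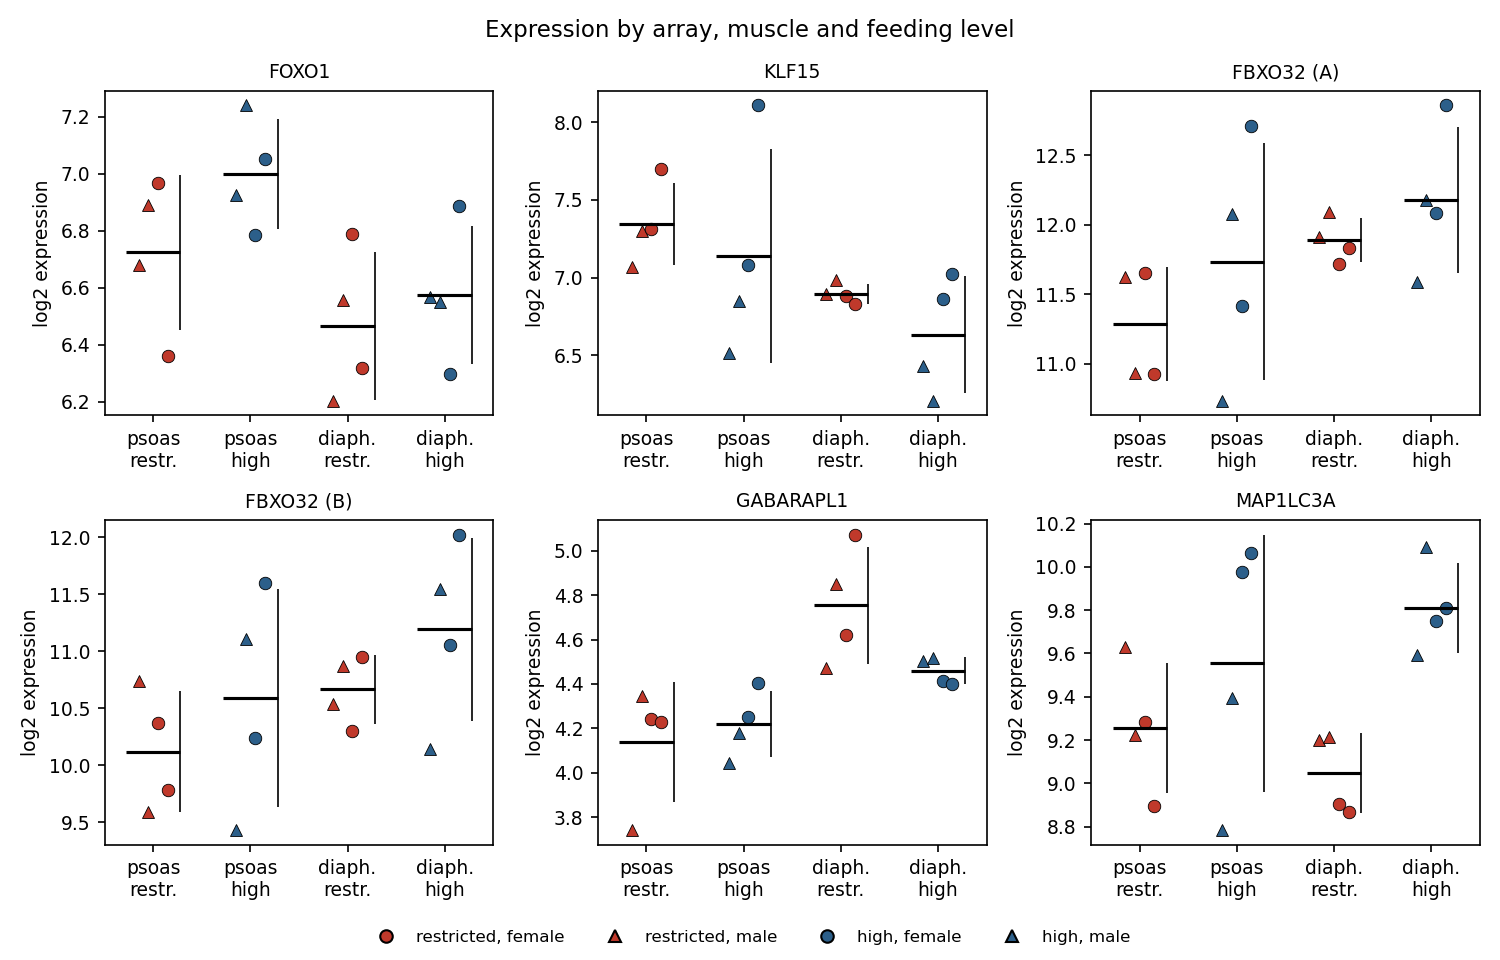
Log2 expression (y axis) of the 6 tested probe sets in each of the 16 arrays, by muscle and feeding level (x axis, 4 animals per group). Circles are females, triangles males, red restricted and blue high feeding. The horizontal line is the group mean and the vertical line its SD. The restricted diaphragm values of MAP1LC3A, at 8.87 to 9.21, all lie below the high-fed ones, at 9.59 to 10.09, whereas every other pair of feeding groups overlaps.

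FOXO1, the forkhead factor that acts downstream of insulin signalling, measured 6.68, 6.89, 6.97 and 6.36 in restricted psoas (animals 2, 3, 5 and 8) and 6.92, 7.24, 6.79 and 7.05 in high-fed psoas (animals 1, 4, 6 and 7). In diaphragm it measured 6.20, 6.56, 6.79 and 6.32 in the restricted animals and 6.57, 6.55, 6.30 and 6.89 in the high-fed animals. The ranges of the muscles overlapped, but within each of the 8 animals psoas was the higher muscle. FOXO1 was 1.27-fold higher in psoas (6.86 ± 0.26 against 6.52 ± 0.24 in diaphragm, SD, n = 8 arrays each; log2 difference 0.34 ± 0.12 SE, 95% interval 0.09 to 0.60, adjusted p = 0.0466). With the animal as a replicate block FOXO1 was called as well (adjusted p = 0.00937). Across arrays, the call stood close to the threshold. It was lost without animal 1 (adjusted p = 0.0849), 2 (0.0986), 3 (0.0921), 4 (0.118), 6 (0.0693) or 7 (0.0519), while the log2 difference stayed between 0.29 and 0.39 whichever animal was left out. With no filter on low values, where more probe sets are tested, the call was lost as well (adjusted p = 0.0953). In bulk tissue, a difference in the number of cells that express a gene and a difference in RNA per cell cannot be told apart.

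KLF15, the glucocorticoid-induced factor, measured 7.07, 7.30, 7.31 and 7.70 in restricted psoas and 6.51, 6.85, 7.08 and 8.11 in high-fed psoas, in the same order of animals. In diaphragm it measured 6.89, 6.98, 6.88 and 6.83 in the restricted animals and 6.43, 6.21, 6.86 and 7.03 in the high-fed animals. The 4 restricted diaphragm arrays lay close together, and the highest value of all was the psoas of animal 7, a high-fed female. Psoas was higher in 8 of 8 animals, by 0.08 in animal 1 at the least and by 1.08 in animal 7 at the most. KLF15 was 1.39-fold higher in psoas (7.24 ± 0.50 against 6.76 ± 0.29 in diaphragm, SD, n = 8 arrays each; log2 difference 0.48 ± 0.15 SE, 95% interval 0.15 to 0.80, adjusted p = 0.0318). Across arrays, the call was lost without animal 4 (adjusted p = 0.0707) or animal 8 (0.0841), and with no filter (0.0763). With the animal as a replicate block KLF15 was called (adjusted p = 0.0107).

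GABARAPL1, an ATG8 protein of the GABARAP branch, was lower in psoas, and its values lay near the lower end of the tested range. It measured 3.74, 4.35, 4.24 and 4.23 in restricted psoas and 4.04, 4.18, 4.25 and 4.40 in high-fed psoas. In diaphragm it measured 4.47, 4.85, 4.62 and 5.07 in the restricted animals and 4.50, 4.52, 4.41 and 4.40 in the high-fed animals. The muscles met at 1 point only, since the highest psoas value and the lowest diaphragm value were both those of animal 7, whose muscles differed by 0.002, and in the other 7 animals psoas was the lower. GABARAPL1 was 1.34-fold lower in psoas (4.18 ± 0.21 against 4.61 ± 0.24 in diaphragm, SD, n = 8 arrays each; log2 difference -0.43 ± 0.11 SE, 95% interval -0.66 to -0.19, adjusted p = 0.0104). Its call held whichever animal was left out, with adjusted p between 0.00971 and 0.0285. With 7 of 8 psoas arrays at or above 4, and so close to it, the size of this difference rests on weak signals.

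FBXO32, which encodes the muscle ubiquitin ligase atrogin-1, had 2 tested probe sets, called A and B here, that moved together (r = 0.953 over the 16 arrays after the mean of each muscle was subtracted, a description with no test). Probe set A measured 11.62, 10.93, 11.65 and 10.92 in restricted psoas and 10.73, 12.08, 11.41 and 12.71 in high-fed psoas. In diaphragm it measured 11.91, 12.09, 11.72 and 11.83 in the restricted animals and 11.59, 12.18, 12.08 and 12.86 in the high-fed animals. Animals differed widely: animal 7 had the highest value and animal 1 the lowest in both muscles, and both were on the high feeding level. Psoas was the lower muscle in 8 of 8 animals, by 0.06 to 1.16. The difference of -0.52 ± 0.24 (SE; 95% interval -1.03 to -0.01) was not called across arrays (adjusted p = 0.116), but was with the animal as a replicate block, that is, in a comparison of the paired muscles (adjusted p = 0.0136).

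FBXO32 probe set B measured 10.74, 9.59, 10.37 and 9.78 in restricted psoas and 9.43, 11.11, 10.24 and 11.59 in high-fed psoas. In diaphragm it measured 10.54, 10.87, 10.30 and 10.95 in the restricted animals and 10.15, 11.54, 11.06 and 12.02 in the high-fed animals. Psoas was lower in 6 of 8 animals and higher in animals 2 and 5. Its difference of -0.57 ± 0.30 (SE) was likewise not called across arrays (adjusted p = 0.174) and called with the animal as a replicate block (adjusted p = 0.0218).

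MAP1LC3A, an ATG8 protein of the LC3 branch, measured 9.63, 9.22, 9.28 and 8.89 in restricted psoas and 8.78, 9.40, 9.98 and 10.07 in high-fed psoas. In diaphragm it measured 9.20, 9.21, 8.91 and 8.87 in the restricted animals and 9.59, 10.09, 9.75 and 9.81 in the high-fed animals. It averaged 9.41 ± 0.46 in psoas and 9.43 ± 0.45 in diaphragm (SD, n = 8 arrays each), with a log2 difference of -0.02 and a 95% interval of -0.40 to 0.36 (adjusted p = 0.939). Psoas was the higher muscle in 6 of 8 animals, by at most 0.43, and the lower one in the 2 high-fed males, animals 1 and 4, by 0.81 and 0.69.

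**Figure D2:**
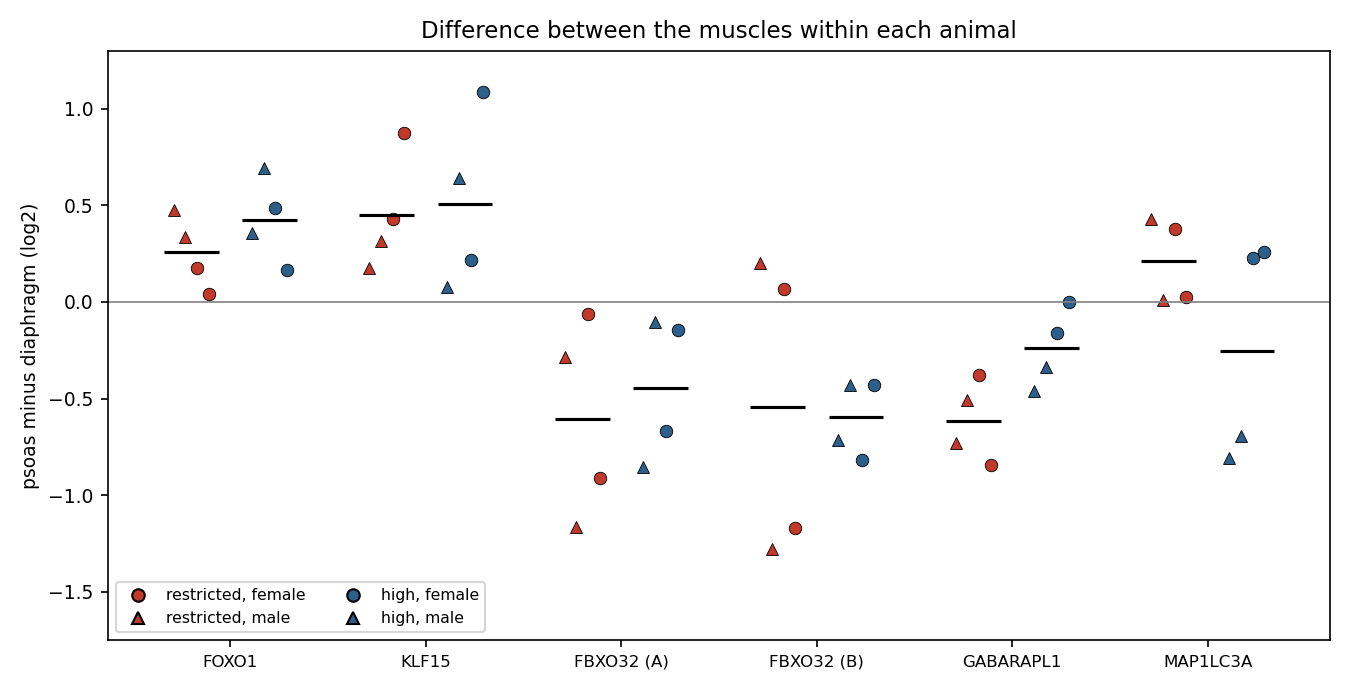
Psoas minus diaphragm difference in log2 expression (y axis) of each of the 8 animals, for the 6 tested probe sets (x axis). Circles are females, triangles males, red restricted (left of each pair) and blue high feeding, and lines are means of 4 animals. FOXO1 and KLF15 lie above 0 in 8 of 8 animals and FBXO32 probe set A lies below 0 in 8 of 8.

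Within each feeding level, GABARAPL1 under restriction was the only call between the muscles among the 6 probe sets across arrays. With the animal as a replicate block, FBXO32 probe set B was called at high feeding as well (adjusted p = 0.049), but probe set A was not. Across arrays, without the block, 9.27% of all tested probe sets were called under restriction and 8.51% at high feeding. In that fit none of the 6 was called at high feeding, with 2 at an unadjusted p under 0.05 (FOXO1 and KLF15), against 26.0% of all tested. GABARAPL1 was 1.53-fold lower in psoas under restriction (4.14 ± 0.27 against 4.75 ± 0.26 in diaphragm, SD, n = 4 each; log2 difference -0.61 ± 0.14 SE, adjusted p = 0.0186). Every restricted psoas value lay below every restricted diaphragm value, as held in this direction for 8.28% of all tested probe sets. At high feeding the difference was -0.24 ± 0.14 (SE, adjusted p = 0.309), at 4.22 ± 0.15 in psoas and 4.46 ± 0.06 in diaphragm (SD, n = 4 each). The psoas minus diaphragm difference of restricted minus that of high-fed animals was -0.37 ± 0.16 (SE, adjusted p = 0.807), so that a dependence on feeding was not shown. In that comparison limma called 0 probe sets, and GABARAPL1 was the only 1 of the 6 with an unadjusted p under 0.05, against 6.07% of all tested. The call under restriction was lost without animal 8 (log2 difference -0.54, adjusted p = 0.0688) and with the actin gap as a covariate (adjusted p = 0.065).

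For FOXO1 and KLF15 the sign of the muscle difference was the same at both feeding levels. FOXO1 differed by 0.26 ± 0.17 under restriction and by 0.43 ± 0.17 at high feeding, and KLF15 by 0.45 ± 0.22 and 0.51 ± 0.22 (log2, SE, none called). The difference of restricted minus that of high-fed animals was -0.17 ± 0.15 for FOXO1 and -0.06 ± 0.23 for KLF15 (SE, adjusted p = 0.875 and adjusted p = 0.979). FBXO32 differed by -0.61 ± 0.35 under restriction and -0.44 ± 0.35 at high feeding on probe set A, and by -0.55 ± 0.44 and -0.60 ± 0.44 on probe set B. For MAP1LC3A the sign differed, with 0.21 ± 0.24 under restriction and -0.25 ± 0.24 at high feeding. The test of that difference gave 0.47 ± 0.23 (SE, adjusted p = 0.808).

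Restricted against high-fed animals were compared within each muscle, 4 against 4, to ask whether restriction moved these genes. In diaphragm, MAP1LC3A averaged 9.05 ± 0.18 in restricted animals and 9.81 ± 0.21 in high-fed animals (SD, n = 4 each), a 1.70-fold lower level with no overlap. Its log2 difference of -0.76 ± 0.13 (SE, 95% interval -1.07 to -0.46) had the smallest p of the 6 before adjustment, but adjusted p = 0.472 over the array, and it was not called. Of all tested probe sets, 4.88% had feeding groups that did not overlap in diaphragm, 2.69% with the restricted animals lower, and 9.60% had an unadjusted p under 0.05. The difference was -0.89 in females and -0.63 in males (2 animals per level each), lay between -0.89 and -0.69 whichever animal was left out (adjusted p between 0.0753 and 0.825), and was -0.67 with the actin gap as a covariate (adjusted p = 0.502). MAP1LC3A was the only 1 of the 6 with an unadjusted p under 0.05 in diaphragm, and limma called 0 of 11467 probe sets.

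In psoas, MAP1LC3A averaged 9.26 ± 0.30 in restricted animals and 9.56 ± 0.59 in high-fed animals (SD, n = 4 each), and the groups overlapped, as they did for all 6 probe sets in psoas, where 4.98% of all tested did not. The difference was -0.30 ± 0.28 (SE, 95% interval -0.96 to 0.36, adjusted p = 0.721). Females and males went opposite ways there, with -0.93 in females and 0.34 in males, each from 2 animals per level, a contrast that was not tested. The high-fed female psoas values of animals 6 and 7 were the highest for this gene in psoas and that of animal 1, a high-fed male, was the lowest. Over both muscles, with each animal as the mean of its arrays, the restricted animals averaged 9.15 ± 0.22 and the high-fed animals 9.68 ± 0.34 (SD, n = 4 each; log2 difference -0.53 ± 0.19 SE, adjusted p = 0.341). No probe set was called in psoas or over both muscles in limma, where 11.3% and 12.7% had an unadjusted p under 0.05.

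The 5 other probe sets gave no unadjusted p under 0.05 by feeding level in either muscle. FOXO1 differed by -0.11 ± 0.17 in diaphragm and -0.28 ± 0.16 in psoas (restricted minus high, log2, SE). KLF15 differed by 0.26 ± 0.16 in diaphragm and 0.21 ± 0.25 in psoas. Leaving out each animal gave -0.24 to -0.004 in diaphragm and -0.40 to -0.16 in psoas for FOXO1, and 0.15 to 0.37 in diaphragm and 0.06 to 0.47 in psoas for KLF15. With the actin gap as a covariate FOXO1 differed by -0.18 in diaphragm and -0.13 in psoas. In males KLF15 was higher under restriction by 0.62 in diaphragm and 0.50 in psoas, whereas in females it differed by -0.09 in each, with 2 animals per level and no test of the contrast.

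FBXO32, the gene most often used as a marker of muscle wasting, was on average no higher in restricted animals on either probe set. Probe set A averaged 11.89 ± 0.16 in restricted and 12.18 ± 0.52 in high-fed diaphragm, and 11.28 ± 0.41 in restricted and 11.73 ± 0.85 in high-fed psoas (SD, n = 4 each). The differences were -0.29 ± 0.25 in diaphragm (adjusted p = 0.714) and -0.45 ± 0.40 in psoas (adjusted p = 0.701), and on probe set B -0.53 ± 0.37 and -0.47 ± 0.48 (SE). The 95% intervals on probe set A were -0.86 to 0.28 in diaphragm and -1.39 to 0.48 in psoas. Those on probe set B were -1.39 to 0.33 in diaphragm and -1.57 to 0.62 in psoas. All of them hold both decreases and increases, so a rise under restriction was not excluded. In females the difference was -0.695 in diaphragm and -0.774 in psoas on probe set A, and -0.914 and -0.844 on probe set B. In males it was 0.118 and -0.129 on probe set A, and -0.14 and -0.105 on probe set B. Each of these values rests on 2 animals per level, and the contrast between the sexes was not tested. Whichever animal was left out, the difference on probe set A stayed negative, from -0.49 to -0.053 in diaphragm and from -0.78 to -0.13 in psoas, and that on probe set B lay from -0.88 to -0.26 in diaphragm and from -0.88 to -0.13 in psoas. With the actin gap as a covariate the differences were -0.11 and -0.086 on probe set A in diaphragm and psoas, and -0.086 and -0.099 on probe set B. High-fed animals spread more widely than restricted ones, since animals 1 and 7 were both among them.

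GABARAPL1 had a positive difference in diaphragm, of 0.29 ± 0.14 (SE; 4.75 ± 0.26 in restricted and 4.46 ± 0.06 in high-fed animals, SD, n = 4 each; adjusted p = 0.552), and one of -0.08 ± 0.14 (SE) in psoas. Its 2 highest diaphragm values were those of the restricted animals 8 and 3.

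**Figure D3:**
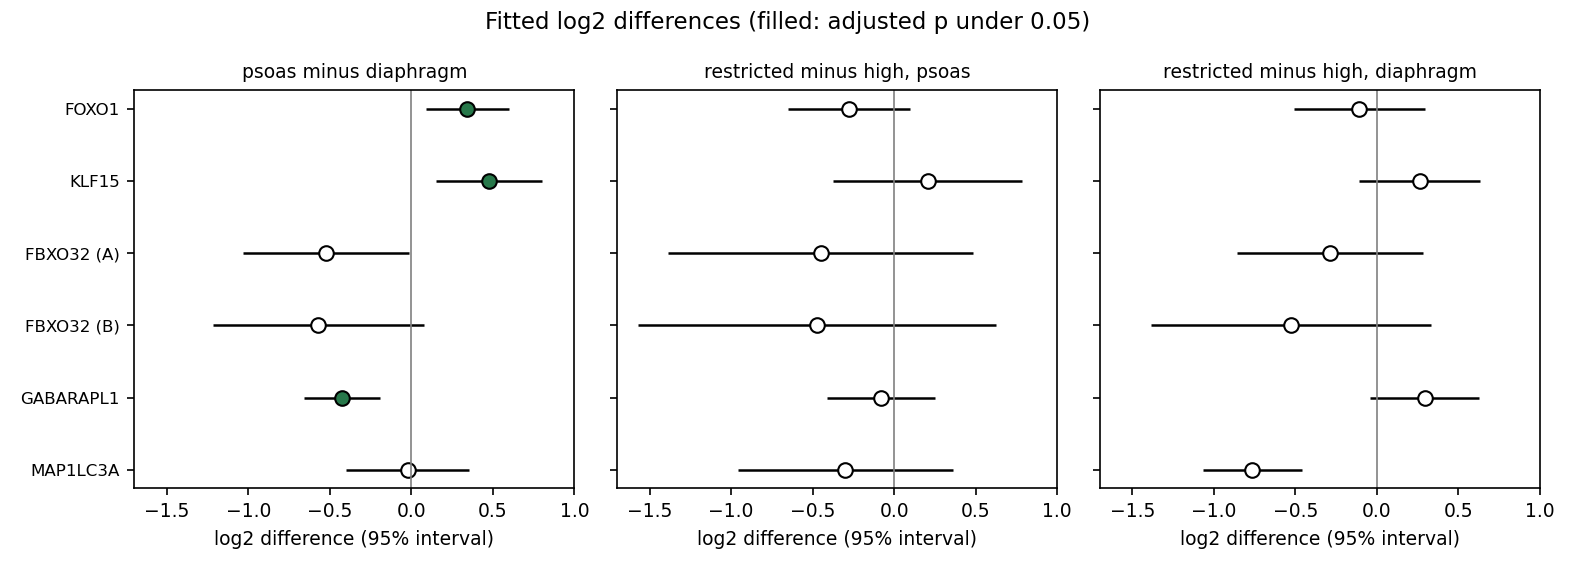
Fitted log2 differences (x axis, points) with 95% intervals (lines) for the 6 tested probe sets, as psoas minus diaphragm (left), restricted minus high in psoas (middle) and restricted minus high in diaphragm (right). Filled points have an adjusted p under 0.05: FOXO1 (0.34), KLF15 (0.48) and GABARAPL1 (-0.43) between the muscles, and none by feeding level.

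Sex was a covariate, and none of the 6 probe sets was called for it, where 0.183% of all probe sets were. KLF15 was the only 1 with an unadjusted p under 0.05, against 9.17% of all tested, and averaged 7.23 ± 0.26 in females and 6.78 ± 0.33 in males (SD of animal means, n = 4 each; log2 difference 0.45 ± 0.18 SE, adjusted p = 0.517). The 2 lowest KLF15 values in each muscle were those of the high-fed males 1 and 4.

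None of the remaining ATG8 genes was called between the muscles. GABARAPL2 differed between the muscles by -0.15 ± 0.07, MAP1LC3B by -0.16 ± 0.12 and 0.05 ± 0.09 on its 2 probe sets, and GABARAP by 0.11 ± 0.10 and 0.05 ± 0.10 (log2, psoas minus diaphragm, SE). By feeding level none of them was called either. In diaphragm MAP1LC3B differed by -0.14 ± 0.16 and -0.29 ± 0.14, GABARAPL2 by 0.06 ± 0.10 and GABARAP by -0.08 ± 0.19 and 0.04 ± 0.17 (restricted minus high, SE). The other FOXO factor measured, FOXO3, lay between 2.10 and 2.82 on both of its probe sets and was not tested. The probe set annotated to TRIM63, the other well-known atrophy ligase, lists a second gene, TARDBP, as well. It was called higher in psoas (0.83 ± 0.13 SE, adjusted p = 0.000546), as were 14.6% of all tested probe sets. By feeding level it was not called (-0.16 ± 0.20 in diaphragm and -0.32 ± 0.17 in psoas, SE). Its values cannot be assigned to either gene.

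Genes of the same pathways were counted from lists of related genes, with 1 probe set per gene, against 17.3% of 4571 tested genes higher and 12.2% lower in psoas. Among 6 FOXO factors and kinases that regulate them, FOXO1 and PRKAA2, a catalytic subunit of AMP-activated kinase (0.33 ± 0.10 SE), were higher in psoas and none was lower. PRKAA2 lost its call with the actin gap as a covariate (adjusted p = 0.0794). Under that fit 12.6% of all tested genes were higher and 457 of 4571 lower, and with the animal as a block 20.3% were higher and 15.6% lower. Of 9 muscle ubiquitin ligases and ubiquitin genes, 3 were higher, namely TRIM55, a sarcomere-associated relative of TRIM63 (0.58 ± 0.18), FBXO31 (0.44 ± 0.11) and the chaperone-linked ligase STUB1 (0.25 ± 0.07). Another 3 were lower, namely FBXO21 (-0.32 ± 0.07), the ubiquitin gene UBB (-0.20 ± 0.06) and the conjugating enzyme UBE2B (-0.18 ± 0.06). With the actin gap as a covariate, 2 of the ligases were higher and 1 lower, without STUB1, UBB and UBE2B. With the animal as a block 3 were higher and 4 lower, with FBXO32 and MUL1, a mitochondrial ligase (-0.27, adjusted p = 0.0239), added to the lower ones and UBE2B lost (adjusted p = 0.0642).

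Of 12 FOXO target genes outside autophagy, 1 was higher in psoas and 2 were lower. CITED2, a transcriptional coregulator, was higher by 0.37 ± 0.10, while GADD45A, a stress gene of denervated and growth-arrested cells (-0.99 ± 0.24), and LPL, lipoprotein lipase (-0.90 ± 0.25), were lower (log2, SE). LPL lost its call with the actin covariate (adjusted p = 0.0685). Of 12 genes of the glucocorticoid response and the KLF15 axis, KLF15 was higher and ANGPTL4, a secreted inhibitor of lipoprotein lipase (-1.07 ± 0.31), was lower. In the comparison of paired muscles with the animal as a block, 3 were higher and 2 lower, with the glucocorticoid targets FKBP5 (0.33, adjusted p = 0.0489) and PER1 (0.32, adjusted p = 0.0157) added to the higher ones and HSD11B1, which activates glucocorticoids in tissue (-0.58, adjusted p = 0.00549), to the lower ones. Adipocyte markers also differed between the muscles, with mean log2 levels of 6.91 to 7.26 in psoas and 7.63 to 9.26 in diaphragm over 5 tested genes, LPL among them. Their part in the values of LPL and ANGPTL4 was not tested.

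Autophagy genes were divided by step. Of 19 genes of the core machinery, 3 were higher in psoas: ATG3, the enzyme that joins ATG8 proteins to lipid (0.35 ± 0.11), ATG4A, a protease that processes them (0.34 ± 0.12), and SNAP29, a fusion protein of autophagosomes (0.32 ± 0.09). VAMP8, a fusion protein on the lysosome side, was lower (-0.66 ± 0.14 SE). With the actin gap as a covariate VAMP8 alone was called, and ATG3, ATG4A and SNAP29 had adjusted p of 0.0907, 0.0917 and 0.101. With the animal as a block ATG12, a ubiquitin-like protein of the conjugation step (0.29, adjusted p = 0.019), was higher as well. Of 10 cargo receptors, the mitophagy genes BNIP3L (-0.53 ± 0.10) and PINK1 (-0.39 ± 0.09) were lower in psoas and none was higher. STBD1, a receptor for glycogen, was called higher with the actin covariate (0.50, adjusted p = 0.0435).

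Of 25 lysosomal and TFEB genes, 9 were lower in psoas and none was higher, with a list median of -0.18 against 0.04 over all tested genes. The proteases CTSK (-0.90 ± 0.20) and CTSS (-0.66 ± 0.14), the acid lipase LIPA (-0.62 ± 0.17) and the sphingolipid cofactor PSAP (-0.35 ± 0.08) were among them. GLB1 (-0.46), GM2A (-0.41), ATP6V0E1 (-0.30), HEXA (-0.27) and the membrane protein LAMP2 (-0.24) made up the rest. TFEB, the factor that drives lysosomal genes, was looked at after its value was seen and differed by 0.29 ± 0.11 (adjusted p = 0.0519), and it was called higher in the blocked model (adjusted p = 0.044). With the actin gap as a covariate 5 of the 25 were lower, against 457 of all 4571 tested genes, without LIPA, GLB1, HEXA and LAMP2. With the animal as a block 11 were lower, against 15.6% of all tested genes, with the protease CTSZ (-0.47, adjusted p = 0.023) and the glucuronidase GUSB (-0.34, adjusted p = 0.0189) added. The 2 higher ones under the block were TFEB and NPC1, a cholesterol transporter (0.36, adjusted p = 0.0479). Immune cells hold many lysosomes, and immune markers were lower in psoas too, with mean log2 levels of 6.22 to 6.99 in psoas and 6.74 to 7.94 in diaphragm over 6 tested genes, of which 5 were called. Their part in the lysosomal differences was not tested.

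Of 7 genes of the mTOR pathway, which opposes autophagy, 4 were higher in psoas and none was lower. They were RHEB, the activator of mTOR complex 1 (0.42 ± 0.11), RRAGA, a GTPase that brings the complex to lysosomes (0.42 ± 0.10), and its anchors LAMTOR2 (0.40 ± 0.08) and LAMTOR3 (0.25 ± 0.08; log2, SE). The actin covariate left 3 of the 7 higher, without LAMTOR3 (adjusted p = 0.122). Within restricted animals alone, GADD45A (-1.27), BNIP3L (-0.57), PSAP (-0.45), SNAP29 (0.45) and LAMTOR2 (0.45) were called between the muscles besides GABARAPL1, and within high-fed animals ANGPTL4 (-1.59), CTSS (-0.73), RHEB (0.54) and FBXO21 (-0.41).

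**Figure D4:**
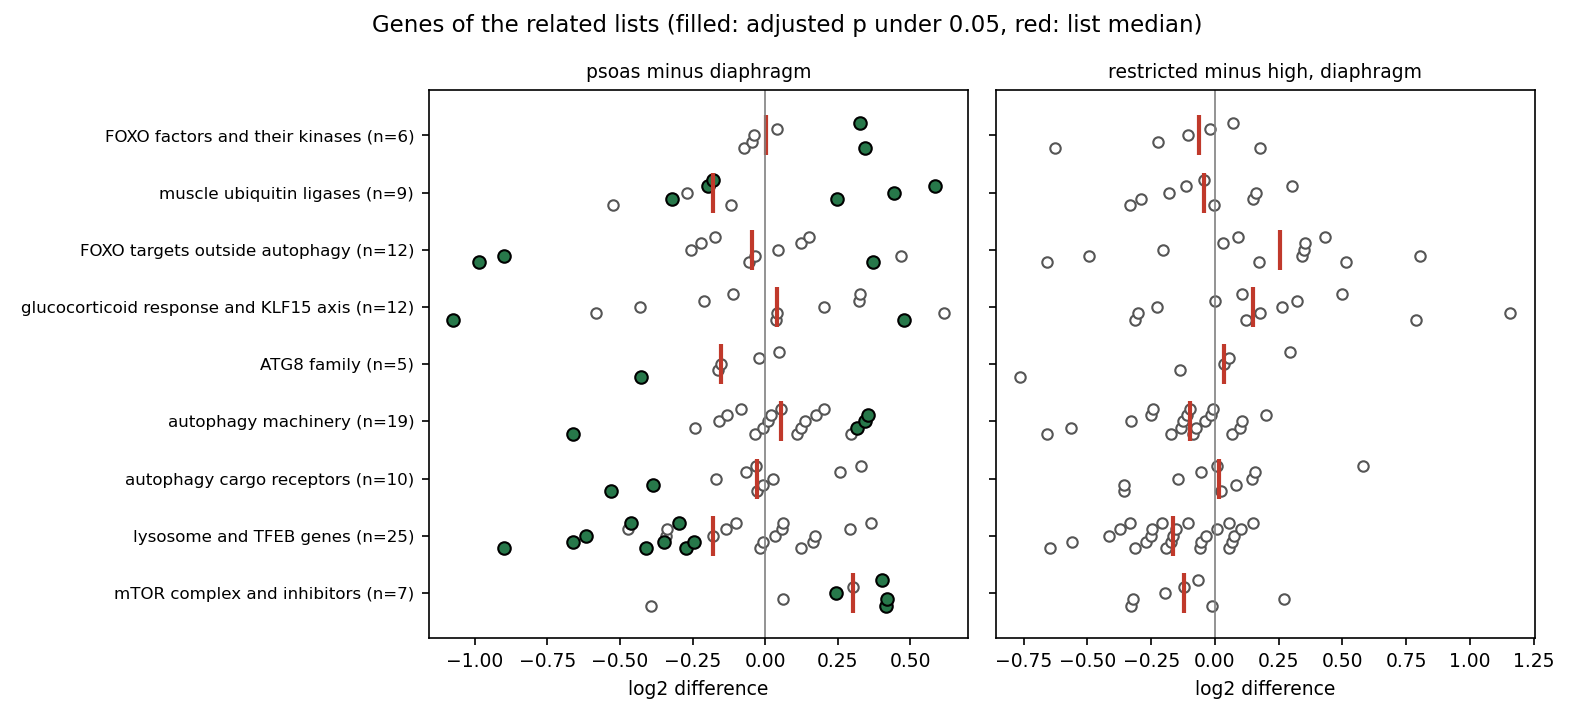
Log2 differences (x axis) of the tested genes of 9 related lists (rows; number of genes in brackets), as psoas minus diaphragm (left) and restricted minus high in diaphragm (right). Each point is 1 gene, filled points have an adjusted p under 0.05 and red bars mark list medians. Filled points stand on both sides of 0 between the muscles, with the 9 lysosomal genes all on the lower side and the 4 mTOR genes on the higher side, and none is filled by feeding level.

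By feeding level no gene of these lists was called in either muscle with limma. Lists differed in how their values leaned, as a description beside all 4571 tested genes, of which 59.3% were lower in restricted diaphragm and 59.5% in restricted psoas, with medians of -0.04 and -0.05. Lysosomal genes were lower under restriction in 18 of 25 cases in diaphragm (median -0.16) and in 21 of 25 in psoas (median -0.25). In psoas 9 of the 25 had an unadjusted p under 0.05, all lower, where 8.9% of all tested genes did so in that direction. PSAP (-0.42 ± 0.11), the aspartic protease CTSD (-0.86 ± 0.24) and ATP6V0E1 (-0.38 ± 0.12) had the smallest p among them (log2, SE, adjusted p = 0.321 for PSAP and CTSD and 0.334 for ATP6V0E1). Immune markers also leaned lower in restricted animals, with list medians of -0.49 in diaphragm and -0.26 in psoas, and their part was not tested.

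The autophagy machinery leaned the same way, in 15 of 19 genes in diaphragm (median -0.10) and 14 of 19 in psoas (median -0.10). ATG4D, a protease of ATG8 proteins, had the smallest p of the list in both muscles, with -0.57 ± 0.16 in diaphragm (adjusted p = 0.477) and -0.50 ± 0.13 in psoas (adjusted p = 0.321). TP53INP2, a nuclear regulator that binds ATG8 proteins, differed by -0.66 ± 0.23 in diaphragm (adjusted p = 0.494) and -0.54 ± 0.16 in psoas (adjusted p = 0.321), and WDR45, a lipid-binding autophagy protein, by -0.35 ± 0.09 in psoas (adjusted p = 0.321). Among the kinases of FOXO factors, AKT1 differed by -0.63 ± 0.15 in diaphragm (adjusted p = 0.472) and -0.43 ± 0.14 in psoas (adjusted p = 0.344). The other kinases of the list went both ways in psoas. PDPK1 differed by -0.31 ± 0.14 there, SGK1 by 0.29 ± 0.16 and PRKAA2 by 0.196 ± 0.135 (log2, SE, none called).

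Target genes of FOXO outside autophagy leaned higher in restricted animals, in 9 of 12 genes in each muscle, with medians of 0.26 in diaphragm and 0.12 in psoas. CITED2 differed by 0.35 ± 0.12 in diaphragm and 0.47 ± 0.13 in psoas, SESN1, a stress-induced inhibitor of mTOR, by 0.34 ± 0.12 and 0.22 ± 0.16, and catalase, CAT, by 0.35 ± 0.19 and 0.56 ± 0.16 (log2, SE, none called). The genes that went lower in restricted psoas were GADD45A (-0.39 ± 0.30), CDKN1A (-0.35 ± 0.19) and SOD2 (-0.15 ± 0.13), also not called. Glucocorticoid response genes were also higher in 9 of 12 cases in each muscle, with medians of 0.15 in diaphragm and 0.30 in psoas. The phosphatase DUSP1 differed by 1.16 ± 0.26 in diaphragm (adjusted p = 0.472) and by 0.30 ± 0.40 in psoas, glutamine synthetase, GLUL, by 0.50 ± 0.14 and 0.22 ± 0.15, and ANGPTL4 by 0.32 ± 0.43 in diaphragm and 1.35 ± 0.35 in psoas (adjusted p = 0.321). None of these lists shows more than its counts, and the actin gap moved with feeding level in diaphragm as given above.

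Across arrays, after the mean of each muscle was subtracted, the r between pairs of the 5 genes lay between -0.276 and 0.655. These correlations are descriptions over 16 arrays that share animals in pairs, and no test was made. Feeding level was not subtracted, so differences between the feeding groups enter these r, also within a muscle. FBXO32 and MAP1LC3A had the highest r, at 0.655 (0.755 within psoas and 0.529 within diaphragm), followed by FOXO1 and FBXO32 at 0.492 and KLF15 and FBXO32 at 0.429. GABARAPL1 and MAP1LC3A, both ATG8 genes, had r of -0.276, with 0.169 within psoas and -0.681 within diaphragm. KLF15 and MAP1LC3A, with r of 0.070 in all, also had opposite signs, at 0.402 within psoas and -0.516 within diaphragm. Among 4570 other genes, the patterns most like that of FOXO1 were MRPL17 (r = 0.859), CYP51 (0.856) and UNC50 (0.831). Those most like KLF15 were ADGRA3 (0.864), SESN1 (0.826) and PPP1R1A (0.823), and those most like FBXO32 were LOC100157453 (0.903), GNPDA1 (0.887) and PIM3 (0.878). GABARAPL1 had its highest r with CXCL14 (0.758), TERF2 (0.757) and ROPN1L (0.755), and MAP1LC3A with NXF1 (0.862), DNAJA3 (0.795) and SIRT2 (0.793).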

How the data were processed

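Total RNA of both muscles of 8 pigs was hybridised to Affymetrix porcine arrays, 1 array per muscle and animal. The authors deposited log2 expression values, 1 per probe set and array, which the submitters' processing notes credit to GCRMA. The sources used here give neither its version nor whether the 16 arrays went through it jointly. GCRMA evens out array distributions, which removes any change common to most genes. It can also compress values near background, so the size of differences of weak signals is uncertain. No further scaling was applied. The precision is limited by the number of arrays.

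Of 24123 probe sets, 10099 had 1 gene symbol in the platform annotation, 198 had several and 13826 had none. After 124 control probe sets were left out, those at or above 4 on at least 4 arrays were tested, two-sided, in R 4.3.3 with limma 3.58.1 (linear models with empirical Bayes moderation), with Benjamini-Hochberg adjustment over all 11467. The scripts were tested on simulated data with independent noise on each array, so the pairing of muscles within animals was not covered. Every adjusted p in the text is limma's. The muscle fit used all arrays, with feeding and sex as covariates, and the fits within 1 feeding level came from a model of the 4 groups plus sex. Feeding levels were compared on the 8 arrays of a muscle, or on 8 animal means, with sex as covariate, and the dependence of the muscle difference on feeding on 8 within-animal differences. The labels give both muscles of each animal. Deviations of an animal's arrays from their group means correlated at 0.199 to 0.281, positive in 8 of 8 animals, and a model with the animal as replicate block served as an alternative. Other alternatives were no filter, quantile normalization, an intensity trend with a robust prior, the actin gap as a covariate, no covariate, and leaving out each animal. The fits to animals 4, 6, 7 and 8 alone and to 1, 2, 3 and 5 alone were added after the data were seen.

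The 5 genes, the pathway and marker lists and the tests were chosen with earlier results of these data known. A list gene with several probe sets was represented by its highest on average. The text names pathway list genes called in any comparison or, between the muscles, with the animal as a block or the actin gap as a covariate, otherwise up to 3 with the smallest p, then the ATG8 and FOXO genes whatever their values, and for likeness the 3 genes with the highest r per member. Dixon's test, run on 24 groups of 4 values each, flagged 0. It is not a check of whole arrays.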

Additional observations from a re-analysis of the deposited data

How the results depend on the processing

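Between the muscles, GABARAPL1 kept its call under all 5 other settings (adjusted p = 0.00747 to 0.037), whereas FOXO1 and KLF15 lost theirs with no filter (0.0953 and 0.0763), where more probe sets are tested. Called probe sets among the 6 numbered 3, with 1 under no filter, 5 with the animal as a replicate block (both FBXO32 probe sets added, -0.52 and -0.57), 1 to 3 leaving out each animal, and 0 within animals 4, 6, 7 and 8 alone (405 probe sets called on the array) or animals 1, 2, 3 and 5 alone, sets with fewer arrays chosen after seeing the data. In those sets FOXO1 differed by 0.35 and 0.34, KLF15 by 0.70 and 0.25 and GABARAPL1 by -0.34 and -0.52, in the same order. Under restriction 1063 probe sets were called, against 671 with no filter, 387 with the actin covariate (GABARAPL1 adjusted p = 0.065, so 0 of the 6), 1911 with the block and 303 to 1419 leaving out each animal (0 to 1 of the 6). At high feeding 976 were called, against 574 with no filter, 598 with the block (1 of the 6, FBXO32 probe set B, adjusted p = 0.049) and 282 to 877 leaving out each animal. By feeding level 0 were called, against 1 with no filter, 2 with no covariate and 0 to 2 leaving out each animal in diaphragm, 2 with no filter and 0 to 1 in psoas, and 0 to 1 over both muscles, none of them among the 6. For sex 21 were called, against 39 with the block and 13 to 23 leaving out each animal. The block changed no other call of the 6 probe sets; among pathway list genes between the muscles it added MUL1, FKBP5, PER1, HSD11B1, ATG12, TFEB, NPC1, CTSZ and GUSB and removed UBE2B.

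Signs turned only for differences that were not called. MAP1LC3A between the muscles was 0.002 in animals 1, 2, 3 and 5 and -0.086 to 0.09 leaving out each animal. With the actin covariate the feeding dependence of the muscle difference was 0.31 for KLF15 and 0.048 for FBXO32 probe set A, and the sex difference of FOXO1 was 0.04. Leaving out each animal, that dependence was -0.24 to 0.10 for KLF15, -0.35 to 0.03 for FBXO32 probe set A and -0.24 to 0.35 for probe set B, the feeding difference of GABARAPL1 in psoas was -0.20 to 0.038, and the sex difference was -0.14 to 0.079 for FOXO1, -0.022 to 0.39 and -0.091 to 0.52 for FBXO32 and -0.13 to 0.17 for MAP1LC3A. The cause was not tested. Signals near background limit GABARAPL1 most, and groups of 4 animals limit the feeding comparisons.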
